A study of Mus musculus with 8 samples.

Results

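The genes described here encode proteins of the ribbon synapse, the release site of photoreceptors and bipolar cells. They are Bsn, Pclo, Rims1, Ctbp2, Cacna1f, Cacna2d4, Cplx3, Cplx4, Slc17a7 and Syp. They were taken by name, through every probe set (a group of oligonucleotides read as 1 value) whose only gene symbol in the platform annotation is 1 of these 10. That gave 19 of 45037 probe sets, of which 18 were bright enough to be tested among 27022, and all 10 genes had at least 1 tested probe set. RNA came from mouse retina and was read on 8 Affymetrix arrays, 4 of injected retina (labelled only as a compound-based treatment) and 4 of freshly dissected control retina (labelled as time 0.0 d). The labels give no compound, dose, route, interval, strain, age or sex and no sham injection, so injection, compound and handling cannot be told apart. They also do not say whether each array stands for its own animal, so a p-value reflects sample-to-sample spread that could be technical.

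A ribbon synapse releases glutamate continuously, at a rate that follows the membrane potential. A plate-like ribbon built from the protein RIBEYE holds synaptic vesicles close to the active zone, where an L-type calcium channel admits the calcium that drives fusion. In the retina these synapses are found in rods, cones and bipolar cells, while amacrine and ganglion cells release through synapses without ribbons. The genes fall into 4 roles, namely the scaffold of ribbon and active zone (Bsn, Pclo, Rims1, Ctbp2), the calcium channel (Cacna1f, Cacna2d4), the fusion clamp (Cplx3, Cplx4) and the vesicle itself (Slc17a7, Syp).

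Values are log2(intensity + 16) after quantile normalisation between arrays, a difference is injected minus control in log2 units, and a level of 8.5 was the floor for testing. Array weights, which limma gives lower to noisier arrays, ran from 0.191 (injected replicate 3) to 1.46 in injected retina and from 0.962 to 1.83 in control retina. The signal of the Gapdh control probe sets at the 3′ end of the transcript over that at the 5′ end, a measure of RNA and label quality, was 6.23, 5.26, 8.82 and 6.71 on injected replicates 1 to 4. On control replicates 1 to 4 it was 3.64, 3.95, 3.36 and 4.68, so the groups did not overlap in it. The same ratio for actin ran from 43.3 to 59.7 on injected arrays and from 39.2 to 57.2 on control arrays. The part of these differences in the values below was not tested. Rod markers were bright, with Sag, rod arrestin, at percentile 99.6 of all probe sets.

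Across the ribbon synapse genes no difference passed the adjusted threshold. By limma with Benjamini-Hochberg adjustment over 27022 probe sets, 0 of 18 tested probe sets were higher and 0 lower at an adjusted p under 0.05, against a background of 0% in either direction, and the smallest adjusted p among them was 0.643. At an unadjusted p under 0.05 limma counted 1 of the 18, against 6.99% of all tested probe sets. That 1 was lower, against 3.33% of all, and 0 were higher, against 3.66%. An unmoderated linear model counted 2 of the 18 in this way, against 6.3% of all tested probe sets under that model, and 0 past adjustment. The limma count depended on the setting. It was 3 of 18 with arrays centred on their medians, against 7.58% of all. Without control replicate 2 and injected replicate 3 together it was also 3, against 6.29%. The 18 differences ran from -1.58 to 0.73 with a median of -0.11, beside -0.02 over all tested probe sets. Of them 11 were below 0 and 7 above, against 52.4% and 47.6% of all, and 10 were smaller than their own standard error. With each gene read at its brightest probe set, 3 genes were above 0 and 7 below, with a median of -0.17 beside -0.01 over 12886 tested genes. That median was -0.083 without injected replicate 3 and -0.289 without injected replicate 4. When each array was instead centred on its median, 9 of 10 were below 0, a scaling that also moved the median over all tested probe sets to -0.15. In whole retina, fewer cells of a type and less RNA per cell cannot be told apart.

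**Figure D1:**
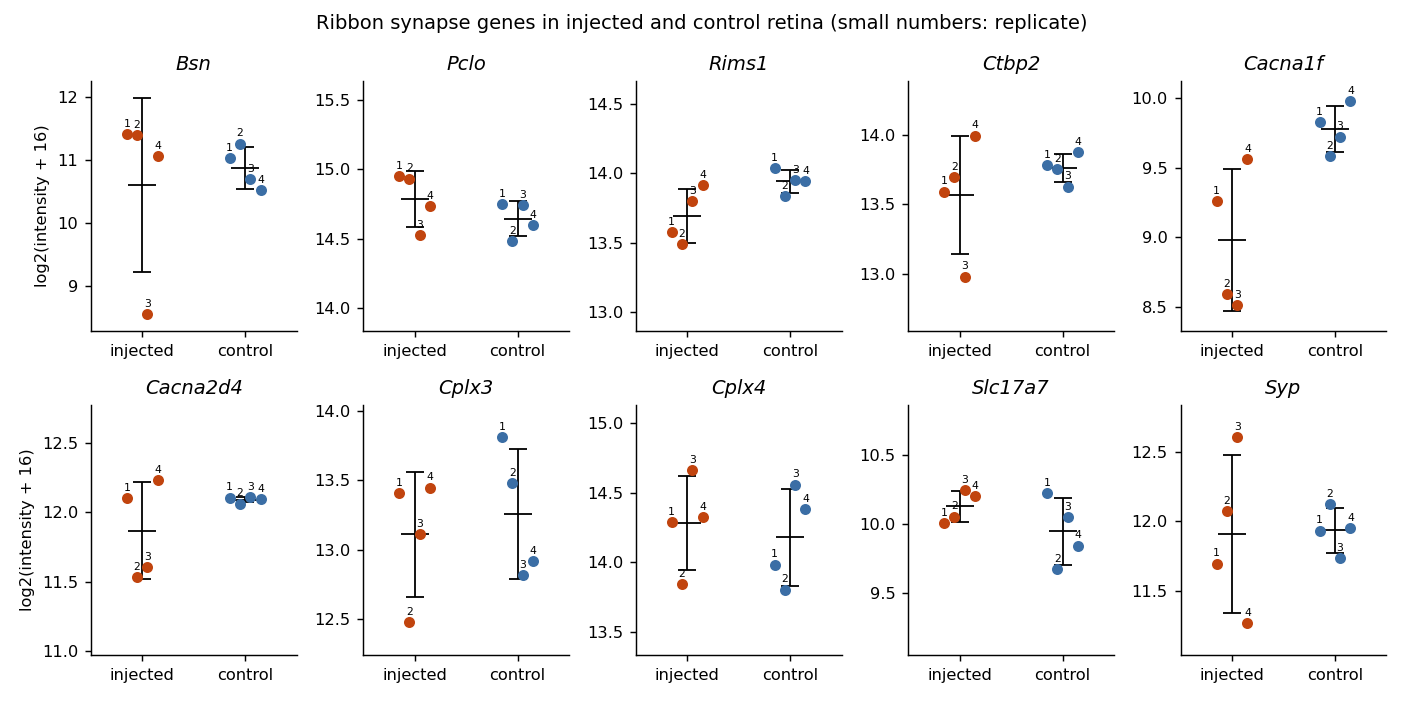
Level of each ribbon synapse gene at its brightest probe set, in log2(intensity + 16), with 1 point per array, injected left of control, and bars giving the mean and SD of 4 arrays. The injected points of Cacna1f all lie below the control points, and the groups overlap for the other 9 genes.

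Cacna1f, which encodes the pore-forming subunit of the photoreceptor calcium channel Cav1.4, was the member with the smallest p. Its level was 9.26, 8.59, 8.51 and 9.56 on injected replicates 1 to 4, against 9.83, 9.58, 9.73 and 9.98 on control replicates 1 to 4. All 4 injected arrays lay below all 4 controls, and injected replicates 2 and 3 lay just above the floor of 8.5. The group means were 8.98 ± 0.51 in injected and 9.78 ± 0.17 in control retina (SD, n = 4 each). The difference of -0.80 ± 0.26 (SE), or 0.575 times the control level, had a 95% interval of -1.39 to -0.20 before any adjustment and did not pass (limma adjusted p = 0.643). It ranked 579 among 27022 probe sets by p. Over all 20 alternative settings it ran from -1.001 to -0.643 and stayed negative, with limma adjusted p from 0.353 upward. Some of these settings, such as another prior, act on the p-value only and leave the difference as it was.

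Cacna2d4 encodes the auxiliary subunit α2δ-4, which supports that channel at photoreceptor terminals. At its brightest probe set it read 12.10, 11.53, 11.61 and 12.23 on injected replicates 1 to 4, against 12.11, 12.06, 12.11 and 12.09 on control replicates 1 to 4. Injected replicates 2 and 3 were low, replicate 1 lay within and replicate 4 above the range of the controls, whose SD was 0.021. The difference was -0.22 ± 0.21 (SE), with an interval of -0.69 to 0.24 (limma adjusted p = 0.781). Leaving out injected replicate 2, 3 or 4 moved it to -0.112, -0.14 or -0.347. A second probe set, 1457703_at, read 10.64, 10.72, 10.67 and 10.63 in injected retina and 11.00, 10.82, 10.75 and 10.92 in control retina. Here the groups did not overlap, although the difference was only -0.21 ± 0.16 (SE; limma adjusted p = 0.761). It stayed between -0.244 and -0.163 with single arrays left out. The third, 1442863_at, differed by -0.12 ± 0.26 with overlapping groups, and was just above 0 without injected replicate 3 (0.005) or control replicate 3 (0.021).

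Groups that did not overlap were thus found at 2 of 18 probe sets of the ribbon synapse genes, against 5.07% of all tested probe sets. Injected retina lay below control at both, against 2.6% of all. It lay above control at 0 of 18, against 2.47%. Both probe sets belong to the calcium channel, and they come from 2 genes read at 4 probe sets. With each gene read at its brightest probe set, 1 of 10 genes had groups without overlap, against 5.5% of all tested genes. Whether such small counts differ from the share over all was not tested.

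The low values of Cacna1f, and of Cacna2d4 at its brightest probe set, fell on injected replicates 2 and 3. There the marker sums of rods, cones, bipolar cells and Müller glia were lowest too. Probe set 1457703_at of Cacna2d4 did not share this order: its highest injected values were on replicates 2 and 3 and its lowest on replicate 4. Cplx4, Slc17a7 and Syp, at their brightest probe sets, did not share it either, with their highest injected value on replicate 3. Summed over 6 of 9 rod markers that were measured, intensity stood at -0.15, -0.505, -0.66 and 0.10 in log2 against the control mean on injected replicates 1 to 4, with the sum between 127733 and 216238 in injected and 198279 and 210535 in control retina. The sum over 7 of 8 cone markers stood at -0.55, -0.81, -1.19 and -0.09, ranging from 42943 to 92549 in injected and from 94018 to 103503 in control retina, without overlap. For 8 of 10 bipolar cell markers it stood at -0.205, -0.32, -0.46 and 0.10, ranging from 104130 to 153262 in injected and from 136599 to 152047 in control retina. Cacna1f on the same arrays stood at -0.52, -1.19, -1.27 and -0.22, so replicates 2 and 3 were lowest and replicate 4 nearest to control in all 4 measures. Müller glia markers (6 of 6 measured) followed the same order, at -0.20, -0.25, -0.36 and 0.00. Amacrine cell markers (8 of 8 measured) did not, at -0.30, -0.12, -0.18 and 0.14, with replicate 1 lowest. Microglia markers (6 of 8 measured) summed to 59623 to 156781 in injected retina, highest on replicate 3, against 27516 to 49078 in control retina, without overlap. Lens markers (4 of 8 measured) summed to 3242 to 67520 in injected retina, highest on replicate 2, against 766 to 14160 in control retina. No blood marker of 5 was measured. No measured marker of these lists passed the adjusted threshold. Groups did not overlap at 5.07% of all tested probe sets, and no such share was computed for sums. The part of the marker levels in the channel values was not tested.

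**Figure D2:**
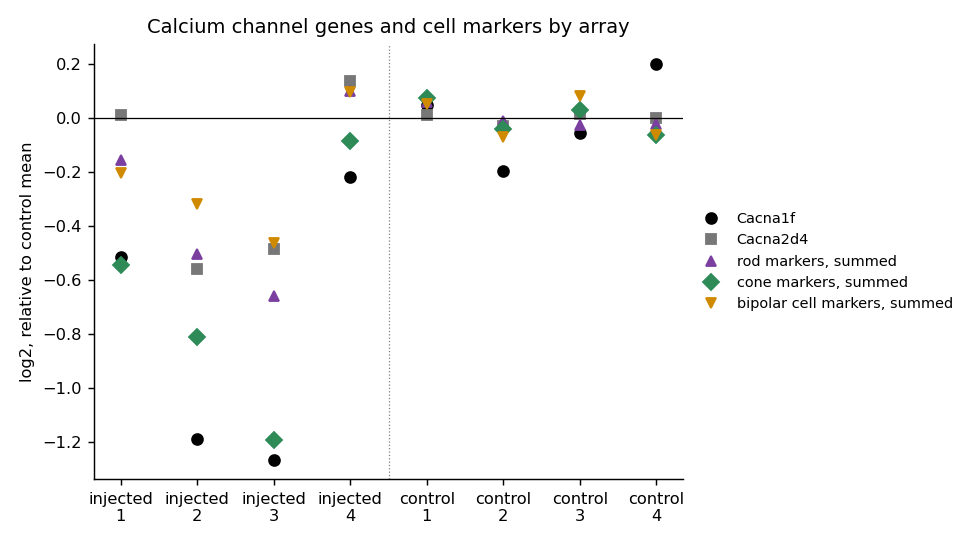
Log2 level of Cacna1f, Cacna2d4 and the summed intensity of rod, cone and bipolar cell markers on each array, relative to the mean of the 4 control arrays, with injected arrays left of the dotted line. Injected replicates 2 and 3 are lowest for each of the 5 measures, and Cacna1f reaches -1.19 and -1.27 there.

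Among the scaffold genes, Ctbp2 gave opposite signs at its 2 probe sets. The gene encodes both CtBP2, a transcriptional corepressor found in many cells, and RIBEYE, the main ribbon protein, which starts from a separate first exon and shares the rest of CtBP2. At probe set 1434705_at it read 13.59, 13.69, 12.98 and 13.99 on injected replicates 1 to 4, against 13.78, 13.75, 13.63 and 13.87 on control replicates 1 to 4. Only injected replicate 3 lay far from the rest, and the difference of -0.19 ± 0.23 (SE; limma adjusted p = 0.82) was 0.00 without it. At probe set 1422887_a_at it read 12.54, 12.71, 12.85 and 13.16 in injected retina and 12.79, 12.43, 12.35 and 12.74 in control retina, a difference of 0.24 ± 0.20 (SE; limma adjusted p = 0.774). The annotation does not say which of the 2 transcripts each probe set reads.

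RefSeq lists 2 starts for Ctbp2 on the minus strand of chromosome 7 (GRCm38.p6). Their windows, from 250 bases before to 50 after the start, are shown because the 2 products of the gene begin at different exons. Neither start was assigned to a product here. The window of Cacna1f, on the plus strand of chromosome X, is shown as that of the member with the smallest p. Capitals mark matches to TAATCC or its reverse complement GGATTA, the letters preferred by the photoreceptor homeodomain factor CRX.
Ctbp2, chr7:133015198-133015497: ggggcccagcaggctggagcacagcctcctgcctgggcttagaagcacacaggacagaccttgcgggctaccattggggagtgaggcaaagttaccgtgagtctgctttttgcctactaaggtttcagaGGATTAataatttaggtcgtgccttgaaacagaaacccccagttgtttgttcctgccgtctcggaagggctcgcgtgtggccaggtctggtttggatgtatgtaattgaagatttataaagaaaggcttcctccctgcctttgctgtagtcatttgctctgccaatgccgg
Ctbp2, chr7:133081811-133082110: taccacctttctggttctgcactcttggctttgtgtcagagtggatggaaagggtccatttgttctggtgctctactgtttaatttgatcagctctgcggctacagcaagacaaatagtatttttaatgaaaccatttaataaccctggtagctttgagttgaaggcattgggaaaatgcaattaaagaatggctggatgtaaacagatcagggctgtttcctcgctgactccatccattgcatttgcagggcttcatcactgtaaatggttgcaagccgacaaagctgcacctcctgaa
Cacna1f, chrX:7606853-7607152: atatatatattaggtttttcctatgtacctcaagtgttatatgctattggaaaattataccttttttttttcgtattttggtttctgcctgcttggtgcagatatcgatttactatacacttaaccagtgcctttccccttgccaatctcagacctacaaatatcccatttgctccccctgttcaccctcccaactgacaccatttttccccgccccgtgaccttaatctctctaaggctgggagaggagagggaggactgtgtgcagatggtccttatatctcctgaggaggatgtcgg
Searched on both strands, these letters occurred in 2320 of 32851 RefSeq windows (7.06%) and in 2 of the 9 windows that 8 of the 10 genes have. The match in Ctbp2 begins at position -121 from the first of the starts above, and the other is in Syp at -246. Other letters were searched in the same way. The GC box GGGCGG occurred in 5 of the 9 windows, against 35.66% of all, and the TATA box TATAAA in 1, against 13.62%. These searches describe letters in these windows and no more.

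Bsn encodes bassoon, a giant scaffold protein that anchors the ribbon at the photoreceptor active zone. At its brightest probe set it read 11.40, 11.39, 8.55 and 11.06 on injected replicates 1 to 4, against 11.02, 11.25, 10.68 and 10.51 on control replicates 1 to 4. Injected replicates 1, 2 and 4 thus lay within or above the control range and replicate 3 lay far below it. The difference was -0.27 ± 0.59 (SE; limma adjusted p = 0.902) with all arrays and 0.42 without injected replicate 3 (adjusted p = 0.777), so its direction rests on that array. A second probe set, 1450467_at, differed by 0.73 ± 0.48 (SE; limma adjusted p = 0.745), and was at 0.45 without that array and 0.30 without control replicate 3. The third, 1422023_at, had means of 6.24 in injected and 6.26 in control retina, below the floor, and was not tested.

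Pclo encodes piccolo, the partner scaffold of bassoon, which ribbon synapses carry in a shortened form called piccolino. At its brightest probe set it read 14.95, 14.93, 14.53 and 14.74 on injected replicates 1 to 4, against 14.75, 14.48, 14.74 and 14.60 on control replicates 1 to 4. The groups overlapped, the difference was 0.14 ± 0.18 (SE; limma adjusted p = 0.826), and the interval was -0.26 to 0.54. It was at -0.04 with arrays centred on their medians. Probe set 1455373_at differed by 0.08 ± 0.32. Probe set 1452423_at read 8.95, 8.97, 5.72 and 9.65 in injected retina, against 9.71, 9.38, 9.95 and 10.57 in control retina. Its difference of -1.58 ± 0.75 (SE; limma adjusted p = 0.725) was the lowest of the 18 and became -0.73 without injected replicate 3, whose value lies below the floor. The 3 probe sets of Pclo therefore do not give a common direction.

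Rims1 encodes RIM1, an active zone protein that links vesicles to calcium channels. It read 13.58, 13.49, 13.80 and 13.91 on injected replicates 1 to 4, against 14.04, 13.84, 13.95 and 13.94 on control replicates 1 to 4. Injected replicates 1 to 3 lay below all controls and replicate 4 lay inside their range. The difference was -0.25 ± 0.17 (SE; limma adjusted p = 0.75), ran from -0.48 to -0.18 over the alternatives, and was -0.11 ± 0.24 at the other probe set.

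**Figure D3:**
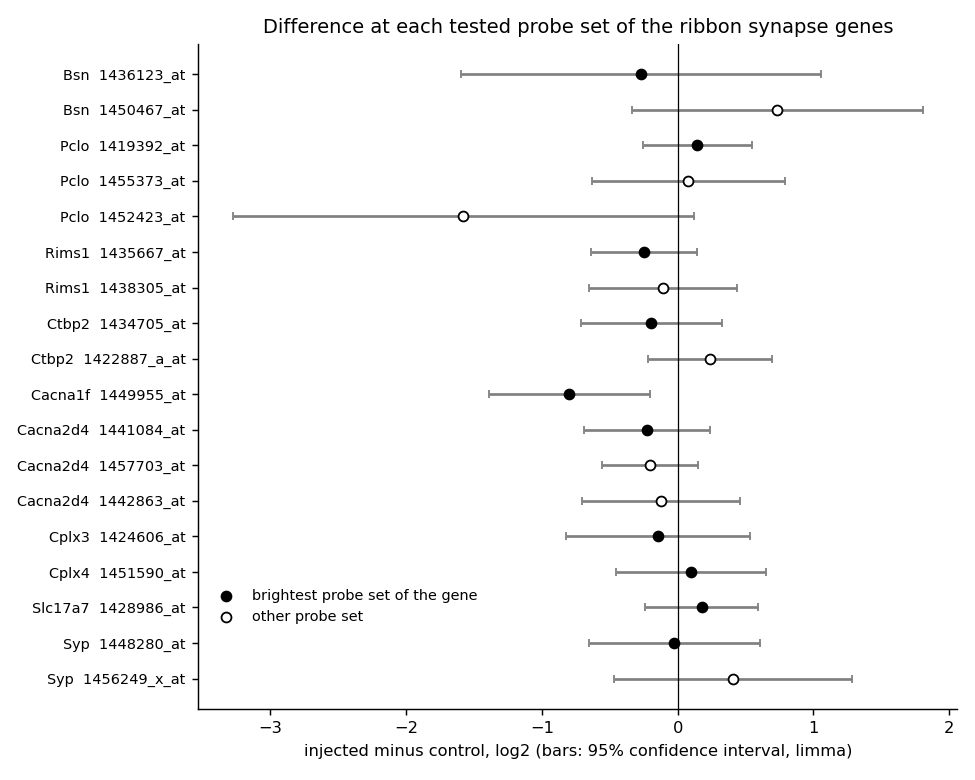
Injected minus control in log2 at each of the 18 tested probe sets, with 95% confidence intervals from limma before any adjustment. Filled points are the brightest probe set of a gene, and Cacna1f has the only interval that leaves out 0.

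The complexins hold the assembled fusion machinery ready until calcium arrives, and complexins 3 and 4 are the forms of retinal ribbon synapses. Cplx3 read 13.41, 12.48, 13.11 and 13.45 on injected replicates 1 to 4, against 13.81, 13.48, 12.82 and 12.92 on control replicates 1 to 4. Both groups spread by about the same amount, with an SD of 0.45 in injected and 0.47 in control retina, and the difference was -0.15 ± 0.30 (SE; limma adjusted p = 0.895). Cplx4 averaged 14.28 ± 0.34 in injected and 14.18 ± 0.35 in control retina (SD, n = 4 each). Its difference was 0.10 ± 0.25 (SE; limma adjusted p = 0.915). The sign of each changed in some settings, with a range of -0.41 to 0.06 for Cplx3 and of -0.15 to 0.245 for Cplx4. The intervals of -0.82 to 0.53 and -0.45 to 0.65 leave room for changes of either sign.

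Of the vesicle genes, Slc17a7 encodes VGLUT1, the transporter that fills vesicles of photoreceptors and bipolar cells with glutamate. It read 10.01, 10.05, 10.24 and 10.20 on injected replicates 1 to 4, against 10.22, 9.67, 10.05 and 9.84 on control replicates 1 to 4. The difference was 0.18 ± 0.18 (SE; limma adjusted p = 0.797), with an interval of -0.24 to 0.59. Over the alternatives, some of which leave the difference as it was, it ran from 0.049 to 0.283. Syp encodes synaptophysin, a vesicle membrane protein of synapses with and without ribbons. It read 11.69, 12.07, 12.61 and 11.27 in injected retina, against 11.93, 12.12, 11.73 and 11.95 in control retina. Its injected values lay on both sides of the controls and its difference was -0.02 ± 0.28 (SE; limma adjusted p = 0.985). The other probe set of Syp, 1456249_x_at, whose suffix marks possible binding to related transcripts, differed by 0.41 ± 0.39 and ran from 0.132 (without injected replicate 4) to 0.664 (without injected replicate 2).

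Probe sets of opposite sign thus occurred for 4 of the 6 genes with more than 1 tested probe set, namely Bsn, Pclo, Ctbp2 and Syp. Rims1 and Cacna2d4 were negative at each of theirs with all 8 arrays. The SD was larger in injected than in control retina at 13 of 18 probe sets (72.2%), beside 72.5% of all tested probe sets. Without injected replicate 3 it was larger at 10 of 18 (55.6%), beside 56.2%. Averaged over the 10 genes, injected replicates 1 to 4 stood at -0.01, -0.23, -0.38 and 0.03 against the control mean, and control arrays ran from -0.04 to 0.11. By this mean, injected replicates 2 and 3 were low, while replicates 1 and 4 lay within the control range. The mean on replicate 3 includes the low value of Bsn. The median over the 10 genes was 0.03, -0.20, -0.14 and 0.14 on injected replicates 1 to 4, and -0.07 to 0.07 on control arrays. On injected replicate 3, 3 genes had their lowest and 3 their highest value of the 8 arrays, so the genes did not move together there.

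**Figure D4:**
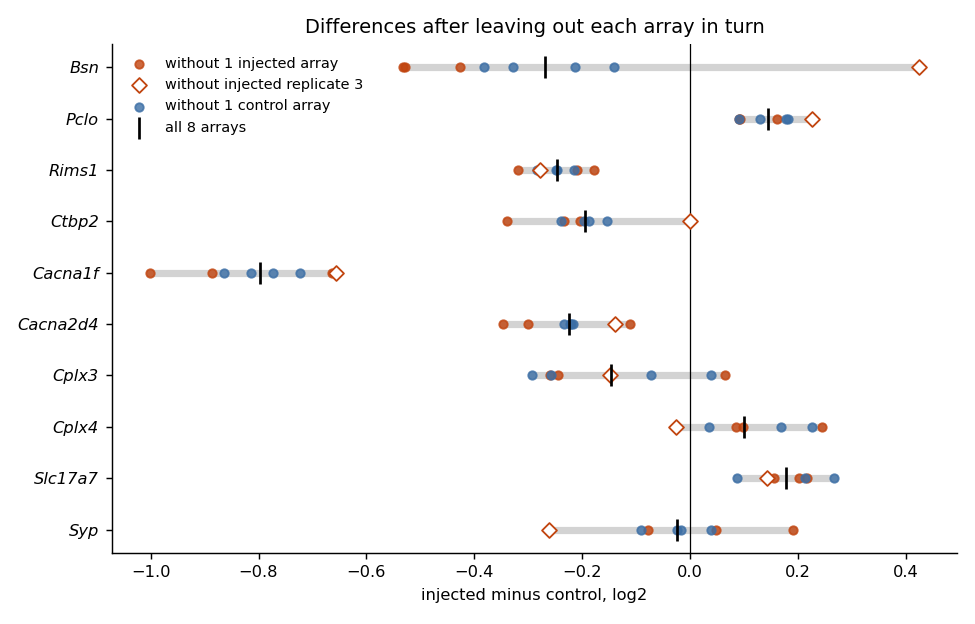
Injected minus control in log2 for each gene at its brightest probe set with all 8 arrays (black line) and after leaving out each array in turn (points). Cacna1f stays between -1.001 and -0.657, while Bsn runs from -0.53 to 0.42 and turns positive only without injected replicate 3.

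Other genes of the same synapse were read from 3 lists. Among 22 further release and active zone genes of ribbon synapses, 20 were measured, with 8 above 0, 12 below, a median of -0.08 and 0 past the threshold or an unadjusted p of 0.05 by limma. The 4 with the smallest p were the vesicle glycoprotein gene Sv2b at 0.44 ± 0.21 (SE), the active zone scaffold gene Erc1 at 0.44 ± 0.21, the vesicle priming gene Unc13b at -0.36 ± 0.19 and Unc119, whose product binds RIBEYE, at -0.64 ± 0.35. None passed (limma adjusted p from 0.725 to 0.734), and Unc119 was at -0.311 without injected replicate 4. Unc119 read 13.26, 12.70, 13.58 and 11.88 on injected replicates 1 to 4, an order unlike that of the rod and cone marker sums. Sv2b and Erc1 also had probe sets of opposite sign, at -0.17 and -0.43.

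Of 20 genes on the bipolar side of the photoreceptor synapse or bridging it, 18 were measured, 9 above 0 and 9 below, with a median of -0.01. By limma 0 passed the threshold and 1 in each direction had an unadjusted p under 0.05, or 2 of 18 against 6.68% of all tested genes. These were Rgs9bp, an anchor of G protein regulators, at -0.68 ± 0.27 (SE; limma adjusted p = 0.709), and the kainate receptor gene Grik1. Grik1 was at 0.60 ± 0.25 (SE; limma adjusted p = 0.712). Rgs9bp read 13.86, 13.64, 13.14 and 14.28 on injected replicates 1 to 4. That is the order of the rod, cone, bipolar cell and Müller glia marker sums, and the cell type of its signal was not tested. Elfn1, an adhesion protein by which rods contact bipolar cells, differed by 0.66 ± 0.37 and was at 0.28 without injected replicate 3. Trpm1, the cation channel of ON bipolar cells, which pigment cells also express, differed by -1.19 ± 0.78 and was at -0.765 without injected replicate 1 and -0.47 without control replicate 2. Control replicate 2 read 12.89 for Trpm1 and had the highest sum of pigment epithelium markers (322102, against 33457 to 106664 in injected retina and 78847 to 166317 on the other control arrays), and the part of this in the value was not tested.

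The last list held 20 genes chosen for synapses without ribbons. Their signal in whole retina was not assigned to a type of synapse. Of these genes 17 were measured, 7 above 0 and 10 below, with a median of -0.13. By limma 0 passed and 1 in each direction had an unadjusted p under 0.05 (2 of 17, against the same 6.68%). Stx1a, the syntaxin of conventional synapses, was at 0.78 ± 0.32 (SE; adjusted p = 0.712). All 4 of its injected arrays lay above the controls, and it was at 0.435 without injected replicate 3. It was the only gene without overlap among the 17, against 0 of 20 ribbon partners and 0 of 18 bipolar side genes. Injected lay above control without overlap at 2.47% of all tested probe sets. Its only tested probe set, 1437390_x_at, has the suffix that marks possible binding to related transcripts. Dlg4, which encodes the scaffold PSD-95, was at -0.83 ± 0.36 (limma adjusted p = 0.713), with 0.13 at its other probe set and -0.541 without injected replicate 3. Dlg4 read 10.63, 9.29, 8.83 and 10.01 on injected replicates 1 to 4, lowest on replicates 2 and 3, where rod and cone markers were lowest too. Its highest injected value was on replicate 1, while the rod and cone sums were highest on replicate 4. Whether its signal came from synapses with or without ribbons was not tested. Sv2c was at -0.52 ± 0.27 (-0.297 without injected replicate 1). Slc17a6, which encodes VGLUT2, was at -0.37 ± 0.21 (-0.222 without injected replicate 3). The medians of the 3 lists and of the 10 ribbon synapse genes lay between -0.17 and -0.01, and no test of a difference between the lists was made.

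**Figure D5:**
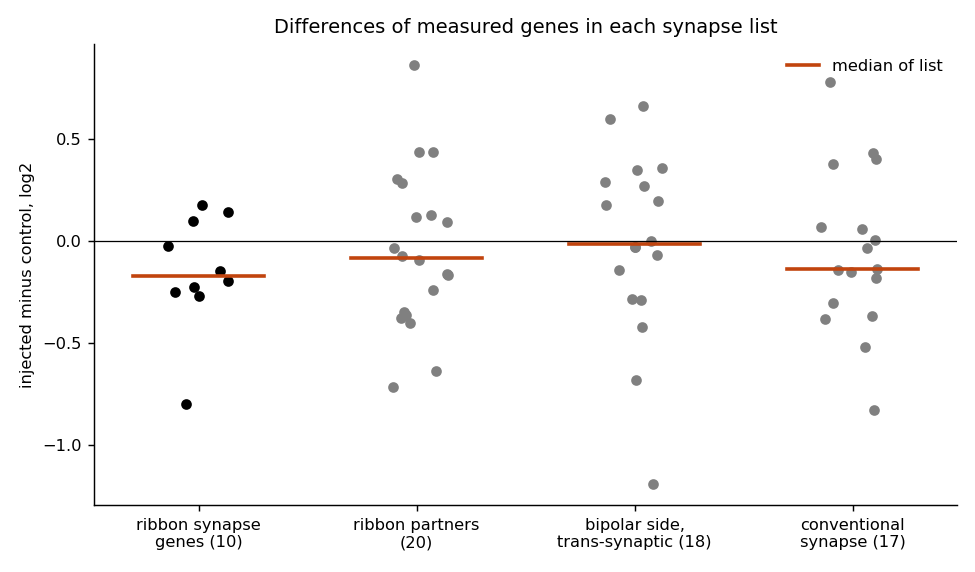
Injected minus control in log2 for each measured gene of the 4 synapse lists, with 1 point per gene and a line at the median of each list. Points of every list lie on both sides of 0, and Cacna1f at -0.80 is the lowest of the ribbon synapse genes.

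Compared over the 8 arrays, the genes whose centred profile lay closest to the mean profile of the 10 ribbon synapse genes were Cdc42ep4, Pop5, Rpa1, Elac1 and Basp1. Their mean absolute distance from it was 0.038 to 0.058 log2 units, beside a median of 0.306 over the 12129 genes compared.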

How the data were processed

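RNA of 8 mouse retina samples was read on Affymetrix arrays, and groups come from the sample labels. In the deposited table each probe set has a linear intensity on every array. The trimmed mean of an array (2500) is the same on all 8, as global scaling by the authors would give, and their software is not given in the sources used here. Because array medians differed by 1.55 times, intensities were quantile-normalised with limma 3.58.1 in R 4.3.3. The scale is log2(intensity + 16), which understates the change of dim genes. Of 45101 probe sets, 64 array controls were left out, and 27022 with a mean at or above the 40th percentile (log2 8.5, about 345 intensity units) were tested.

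Each probe set was fitted with lmFit and moderated with eBayes (3.3 degrees of freedom for the prior), and limma p-values were adjusted by Benjamini-Hochberg over all tested probe sets and a threshold of 0.05. The fit was checked on simulated data. Members, gene lists, tests and alternatives were chosen with earlier results of these data known. Named genes are all 10 members, the 4 genes of each companion list with the smallest p, and the 5 genes with the closest profile. Same-numbered arrays of the groups did not deviate together, so no pairing was used. Alternatives were pseudocounts of 1 and 64, other filters, scalings, priors and probe set choices, array weights (statmod 1.5.0), a replicate block and leaving out arrays. Promoter windows are from RefSeq (GRCm38.p6). Plots used matplotlib 3.10.9 under Python 3.11.15.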

Additional observations from a re-analysis of the deposited data

Results flagged for a closer look

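In 62 groups of 4 arrays, covering the 19 probe sets of the ribbon synapse genes and 12 genes of the companion lists, 2 held 1 array far from the other 3 by Dixon's criterion. Chance flags about 1 in 20 groups, and among all tested probe sets 8.55% of injected and 6.09% of control groups met the criterion. Bsn at probe set 1436123_at read 8.548 on injected replicate 3, and that gap was 0.879 of the range of the injected arrays. Stx1a at probe set 1437390_x_at read 14.093 on the same array, with a gap of 0.917 of the range. That array also had the lowest weight, 0.191.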

How the results depend on the processing

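No probe set of the ribbon synapse genes passed the adjusted threshold in any of the 20 alternatives, and the smallest adjusted p of the 10 genes at their brightest probe sets was 0.353. Over all probe sets, array weights gave 8 calls (7 higher, 1 lower), and leaving out 1 array at a time gave 0 to 34, with 34 (29 higher, 5 lower) without injected replicate 4. With deposited scaling centred on array medians, the median over all tested probe sets was -0.154 against -0.02. The median of the 10 genes was then -0.366 and of their probe sets -0.288, and those of the ribbon partners, bipolar side and conventional lists were -0.255, -0.126 and -0.280. With single arrays left out, the median of the 10 genes ran from -0.289 to -0.083, of their probe sets from -0.141 to -0.014 (the -0.014 without injected replicate 3) and of the conventional list from -0.159 to -0.019 (the -0.019 without control replicate 1). The ribbon partner median ran from -0.186 to -0.015 and the bipolar side median from -0.016 to 0.089.

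Of 200 recomputed differences of the 10 genes, 186 kept their sign. This count includes settings that could not change a difference at the brightest probe set. Those are the settings without a filter, with another prior or no moderation, with other probe set choices and with a replicate block. They act on the p-value only. Bsn turned positive with array weights (0.353) and without control replicate 2 and injected replicate 3 together (0.554), and ran from -0.533 to 0.424 when arrays were left out in turn. Pclo was at -0.042 and Cplx4 at -0.092 with arrays centred on their medians, and Cplx4 was at -0.048 with array weights, at -0.150 without the 2 arrays together and from -0.027 to 0.245 without single arrays. Without single arrays Cplx3 ran from -0.293 to 0.064 and Syp from -0.261 to 0.191. The cause of these changes was not tested.

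Same-numbered injected and control arrays had correlations of 0.084, 0.005, -0.029 and 0.041 in their deviations from the group means, and 1 of 4 control arrays matched its own number best. With the replicate number as a block, 0 probe sets were called. Every replicate number is present in both groups, so the block cannot change a difference, and the median of the 10 genes stayed at -0.17. The number of arrays limits what these differences can show, with a median SE of 0.266 over all tested probe sets.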
